A study of Mus musculus with 16 samples.

Results

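The 8 genes described here belong to the S100 family of small, mostly calcium-binding proteins: *S100a8*, *S100a9*, *S100a1*, *S100a4*, *S100a6*, *S100a10*, *S100a11* and *S100a13*. They were chosen by symbol, as the rows that carry these names among the 24421 gene symbols counted in each of 16 mRNA libraries, a rule that uses no measured value. The list of names itself was drawn up with earlier results of these data known. Of the other counted symbols, 10 also start with S100, and they are used below only for comparison.

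Spleens were taken from 4 WT and 4 *Nlrp3*-/- mice, all of C57BL/6 background and all bearing B16.F10 melanoma, and each RNA sample came from 1 mouse. A pair of subsets of myeloid-derived suppressor cells (MDSCs) was sorted from every spleen on surface antigens: monocytic M-MDSCs as CD11b high, Ly6C+ and Ly6G- cells, and granulocytic G-MDSCs as CD11b high, Ly6C- and Ly6G+ cells. This gave 4 groups of 4 libraries, namely WT M-MDSCs, *Nlrp3*-/- M-MDSCs, WT G-MDSCs and *Nlrp3*-/- G-MDSCs. The comparisons ask how S100 transcripts differ between the subsets of a genotype and between the genotypes of a subset, the study's question being what the NLRP3 inflammasome does in MDSCs of tumor-bearing animals. In the *Nlrp3*-/- mice an EGFP cassette disrupts the *Nlrp3* gene in the germline, so the disruption was not limited to MDSCs. No tumor-free animals are among these libraries, so every value below was taken under a tumor. The paper reports smaller B16.F10 tumors in *Nlrp3*-/- than in WT mice, so genotype and tumor size cannot be told apart here. It also states that C57BL/6J mice were purchased and that the *Nlrp3*-/- mice came from another laboratory. The WT mice are not described as littermates of the *Nlrp3*-/- mice.

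Most S100 proteins, though not all, bind calcium through a pair of EF hands. They mostly act as dimers and bind target proteins inside the cell or receptors outside it. S100A8 and S100A9 pair into calprotectin, which fills much of the cytosol of neutrophils and is also made by monocytes. Once released it acts as an alarmin through TLR4 and RAGE, and it has been tied to the expansion and recruitment of MDSCs. The other 6 members bind annexins, myosin and further intracellular partners and are made by many cell types.

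Libraries held 2295967 to 6079866 counts, so that 3 counts, the smallest amount taken as detected, stood for 0.493 to 1.31 counts per 1000000 of all gene counts in the library (CPM). Levels are given as CPM with the SD over the 4 mice of a group. QuantSeq reads 1 site near the 3′ end of a transcript, so CPM was not divided by length. *Nlrp3* itself had 219 to 1365 counts in WT libraries and 4 to 59 in *Nlrp3*-/- libraries. *Ly6g*, the gene of the sorted antigen, was not among the counted symbols. Defining markers followed the sort labels in both genotypes. In G-MDSCs 11 of 11 granulocyte markers were called higher and 10 of 10 monocyte markers lower. Of these only the call of *Cd177* in *Nlrp3*-/- mice was lost when libraries were scaled by total count alone (log2 difference 0.07, edgeR adjusted p = 0.743). The M-MDSC library of WT replicate 2 stood apart in granulocyte markers, as described with *S100a8* and *S100a9* below, and differences between genotypes in M-MDSCs are also given without it.

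All 8 genes lie on mouse chromosome 3 (mm10, GENCODE M21), within 3.05 Mb of each other, and each is protein coding. *S100a8* (chr3:90668978-90670035, plus strand) and *S100a9* (chr3:90692632-90695721, minus strand) are 22.6 kb apart. *S100a1* (chr3:90511034-90514392, minus strand) and *S100a13* (chr3:90514435-90524581, plus strand) start head to head with 42 bases between the gene ends. *S100a4* (chr3:90603771-90606045) and *S100a6* (chr3:90612882-90624181), both on the plus strand, are separated by 6.84 kb. *S100a11* (chr3:93520488-93526287) starts 2825 kb past the end of *S100a9*, and *S100a10* (chr3:93555080-93564643) lies 28.8 kb past *S100a11*, both on the plus strand. The longest annotated transcripts of the 8 genes had 498 to 783 bases, with a median of 598 against 2700 over all matched genes. A processed pseudogene, *S100a11-ps*, is annotated on another chromosome, so *S100a11* counts are uncertain to the extent that reads match both.

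The sequences upstream of the genes that changed most between the subsets are shown first, because the start sites of *S100a8* and *S100a9* precede the most abundant S100 transcripts and that of *S100a4* precedes the transcript with the strongest opposite difference. They are the 250 bases before the RefSeq start (GRCm38.p6), 5′ to 3′ on the strand of the gene. The interval between the RefSeq starts of *S100a1* and *S100a13* is added because it lies before both genes. Capitals mark exact matches, on either strand, to 5 motifs that were searched: C/EBP (TTGCNNAA), PU.1 (GAGGAA), STAT (TTCNNNGAA), AP-1 (TGANTCA) and the TATA box (TATAAA). RefSeq and GENCODE place some starts differently, which is why the *S100a8* window overlaps the GENCODE gene.
S100a8 (chr3:90668821-90669070, plus strand): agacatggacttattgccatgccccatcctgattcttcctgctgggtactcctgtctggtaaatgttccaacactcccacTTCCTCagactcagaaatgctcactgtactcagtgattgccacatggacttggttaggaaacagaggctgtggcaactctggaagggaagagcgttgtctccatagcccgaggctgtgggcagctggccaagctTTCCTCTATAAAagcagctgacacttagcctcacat
S100a9 (chr3:90695722-90695971, minus strand): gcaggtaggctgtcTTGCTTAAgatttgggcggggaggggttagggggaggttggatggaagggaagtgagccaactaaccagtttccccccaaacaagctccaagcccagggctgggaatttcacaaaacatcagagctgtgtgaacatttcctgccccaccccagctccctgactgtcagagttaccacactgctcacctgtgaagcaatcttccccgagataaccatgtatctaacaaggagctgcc
S100a4 (chr3:90603520-90603769, plus strand): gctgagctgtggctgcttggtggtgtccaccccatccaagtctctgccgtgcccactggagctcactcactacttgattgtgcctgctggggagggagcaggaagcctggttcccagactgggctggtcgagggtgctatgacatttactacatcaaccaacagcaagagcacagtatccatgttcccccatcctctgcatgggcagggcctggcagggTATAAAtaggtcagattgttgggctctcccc
S100a1 to S100a13 (chr3:90514331-90514434, plus strand): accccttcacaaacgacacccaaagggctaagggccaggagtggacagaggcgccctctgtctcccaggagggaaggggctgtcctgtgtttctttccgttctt

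In *S100a8* a TATA box stood 30 to 25 bases before the start, directly after a PU.1 match at 36 to 31 bases, with a second PU.1 match at 170 to 165 bases. In *S100a9* the capitals mark 1 C/EBP match, 236 to 229 bases before the start. In *S100a4* they mark a TATA box 31 to 26 bases before the start. The interval between *S100a1* and *S100a13*, 104 bases long, held no match to any of the 5 motifs. Of the 7 members with a promoter in the RefSeq table, *S100a11* had 1 PU.1 and 2 AP-1 matches, and *S100a6* had none. Over all 32851 promoters of this length, 9.56% held the C/EBP letters, 23.3% the PU.1 letters, 7.02% the STAT letters, 6.75% the AP-1 letters and 12.4% the TATA letters. A match describes the letters only.

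*S100a8* and *S100a9*, the calprotectin pair, were the dominant S100 transcripts of G-MDSCs. In WT G-MDSCs *S100a8* stood at 48236, 49524, 39210 and 45530 CPM in replicates 1 to 4, and in *Nlrp3*-/- G-MDSCs at 57198, 51712, 58929 and 63435 CPM. By counts it was the second most abundant symbol and *S100a9* the third in each of the 8 G-MDSC libraries. *S100a9* stood at 38425, 42154, 33944 and 41982 CPM in WT G-MDSCs and at 46437, 40117, 41232 and 46298 CPM in *Nlrp3*-/- G-MDSCs. The *S100a8* values of the genotypes did not overlap in this subset, with every *Nlrp3*-/- library above every WT library, whereas those of *S100a9* overlapped. On CPM means the exact two-sided permutation test between genotypes gave p = 0.0286 for *S100a8*, the smallest possible with 4 against 4, and p = 0.171 for *S100a9*, both without adjustment. M-MDSCs were far lower throughout. *S100a8* stood at 924, 4462, 753 and 836 CPM in WT M-MDSCs and at 1146, 1205, 1591 and 1280 CPM in *Nlrp3*-/- M-MDSCs. *S100a9* stood at 588, 3135, 484 and 657 CPM in WT M-MDSCs and at 778, 721, 820 and 813 CPM in *Nlrp3*-/- M-MDSCs. For both genes the M-MDSC library of WT replicate 2 was the highest of the 8, and each *Nlrp3*-/- library lay above the other 3 WT libraries.

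**Figure D1:**
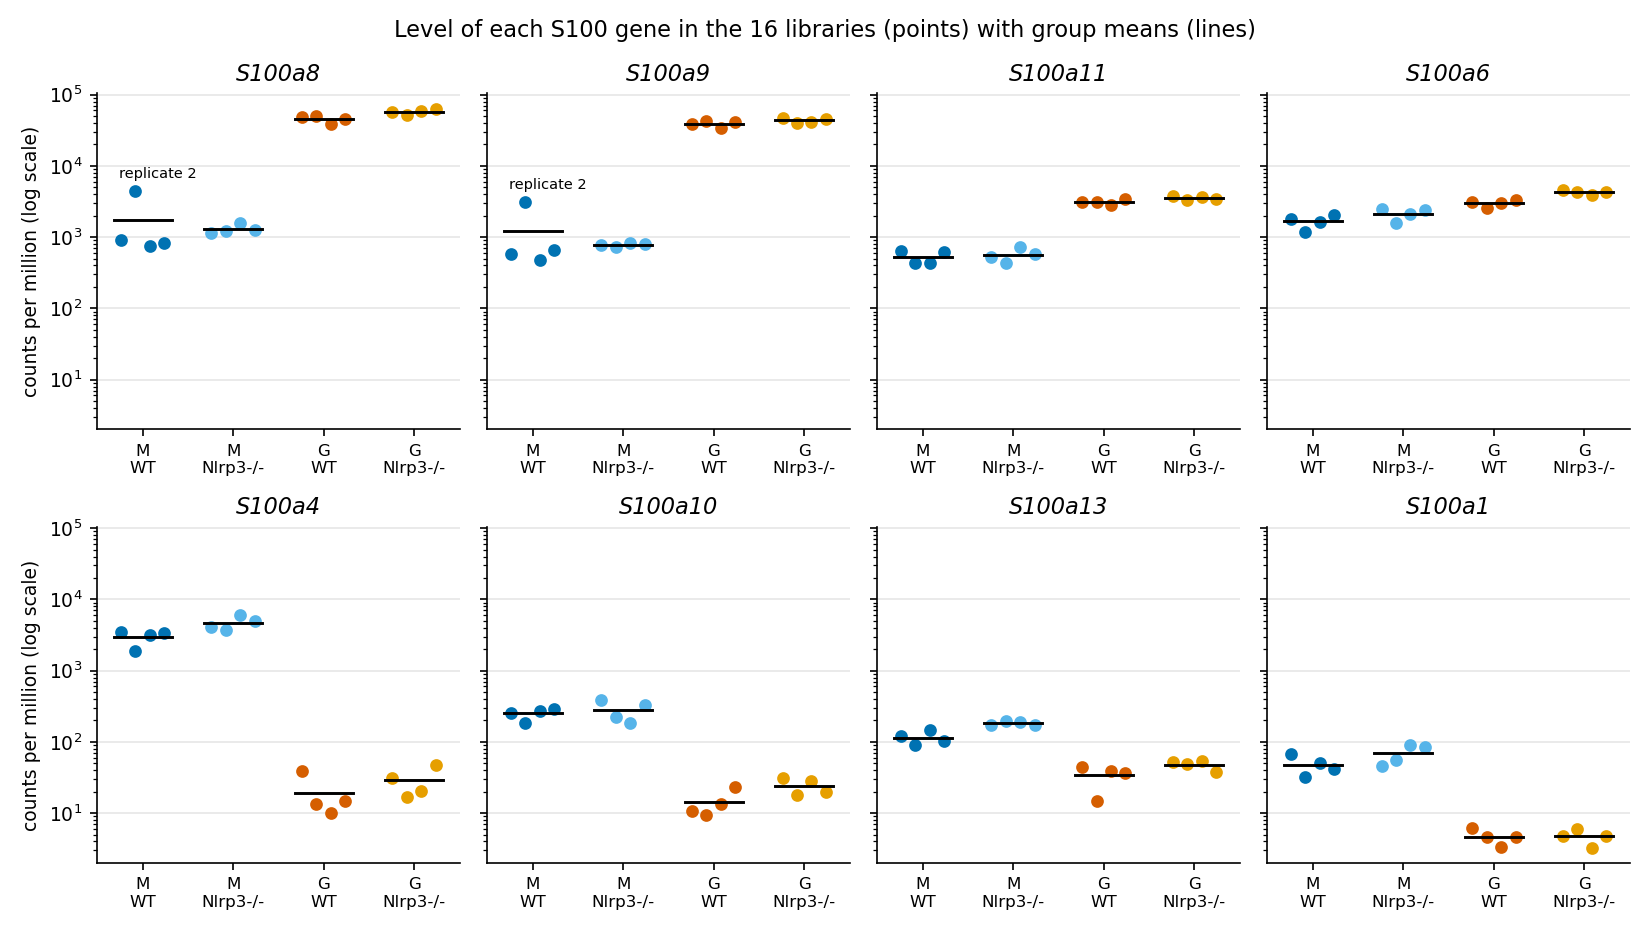
CPM (log scale) of the 8 S100 genes in each of the 16 libraries, with points for libraries in replicate order and lines for the means of the 4 groups of 4 mice. *S100a8*, *S100a9*, *S100a11* and *S100a6* sit higher in every G-MDSC library than in any M-MDSC library, and *S100a4*, *S100a10*, *S100a13* and *S100a1* lower. The M-MDSC library of WT replicate 2 stands at 4462 CPM for *S100a8* and 3135 CPM for *S100a9*, above the other M-MDSC libraries.

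Together *S100a8* and *S100a9* took 8.48% ± 0.804 (SD, n = 4) of all counts in WT G-MDSCs and 10.1% ± 0.747 (n = 4) in *Nlrp3*-/- G-MDSCs. The shares ranged from 7.32 to 9.17% in WT and from 9.18 to 10.97% in *Nlrp3*-/- libraries of this subset, so they met at the boundary without overlapping. In M-MDSCs the pair took 0.151, 0.760, 0.124 and 0.149% of WT libraries and 0.192 to 0.241% of *Nlrp3*-/- libraries. All 8 members took 9.09% ± 0.816 and 10.9% ± 0.763 of the counts in WT and *Nlrp3*-/- G-MDSCs, against 0.853% ± 0.196 and 1.00% ± 0.151 in M-MDSCs. The 6 members other than the pair summed to 0.557% ± 0.122 in M-MDSCs and 0.619% ± 0.0506 in G-MDSCs of WT mice and 0.795% ± 0.132 and 0.795% ± 0.0386 in those of *Nlrp3*-/- mice. As shares of a fixed total they are tied to each other, since a library with more *S100a8* has less room for the rest.

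**Figure D2:**
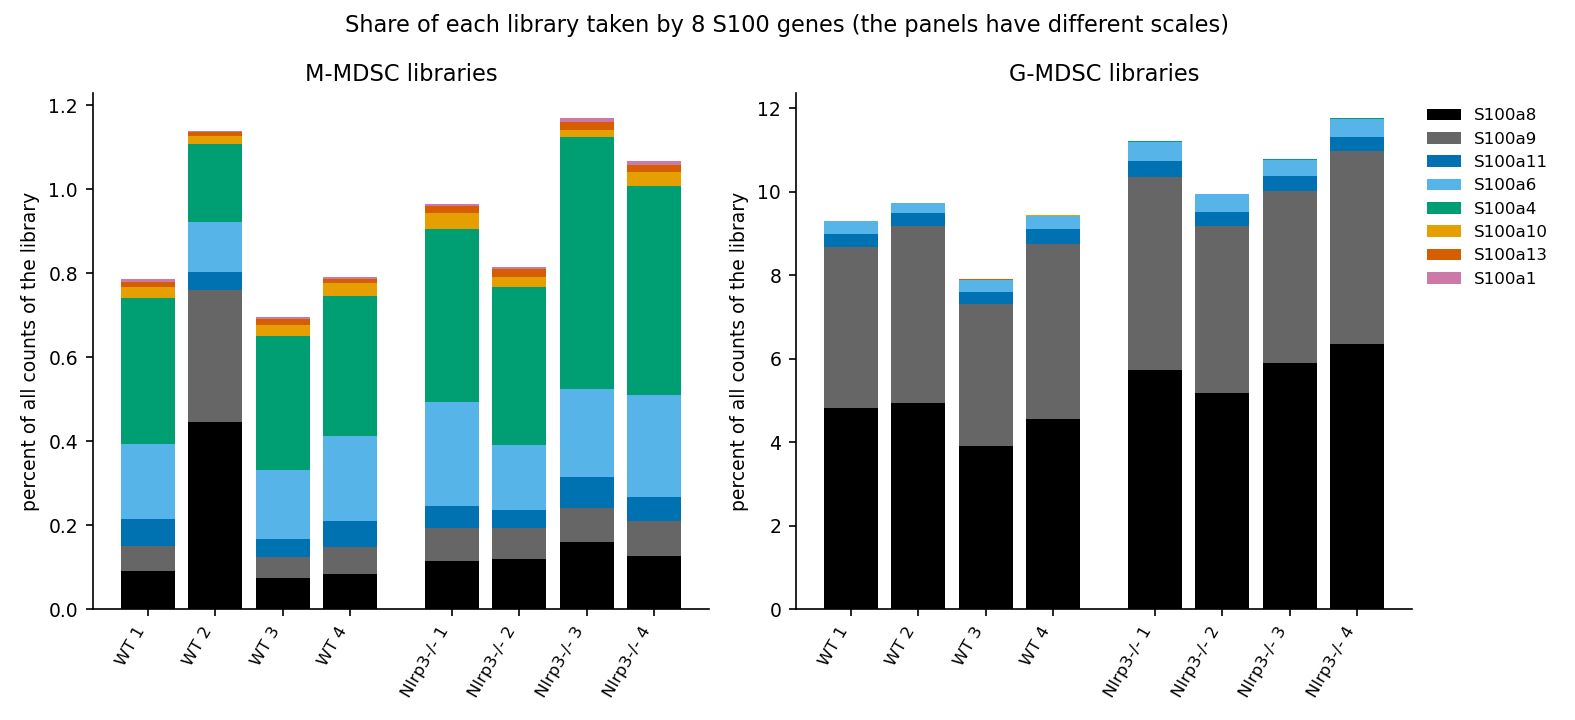
Percentage of all counts of a library taken by each of the 8 S100 genes, stacked, with 1 bar per library and separate scales for M-MDSCs (left) and G-MDSCs (right). *S100a8* and *S100a9* fill most of every G-MDSC bar, while *S100a4* and *S100a6* fill most of every M-MDSC bar except that of WT replicate 2.

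The subset comparison covered all 8 members, which all passed the filter on low counts. With edgeR's quasi-likelihood test, a Benjamini-Hochberg adjusted p (FDR) under 0.05 and a fold change above 1.5, 8 of 8 were called in WT mice, where 53.3% of 9739 tested genes were called, and 8 of 8 in *Nlrp3*-/- mice, where 51% of 10071 were. In both genotypes 4 members were higher in G-MDSCs, as 26.3% of tested genes were in WT and 23.7% in *Nlrp3*-/- mice, and 4 were lower, as 27.1% and 27.4% were. CPM ranges of the subsets did not overlap for 8 of 8 members, against 61.3% of tested genes in WT (11.5% higher, 49.8% lower) and 59.6% in *Nlrp3*-/- mice (12% higher, 47.7% lower). A difference between subsets was thus common among genes, and the members are described by their sizes. In bulk samples fewer cells of a type and less RNA per cell cannot be told apart.

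*S100a8* was higher in WT G-MDSCs by 5.42 on the log2 scale (SE 0.66, edgeR adjusted p = 2.54e-05) and in *Nlrp3*-/- G-MDSCs by 6.19 (SE 0.20, edgeR adjusted p = 6.85e-11). The corresponding values of *S100a9* were 5.72 (SE 0.67, edgeR adjusted p = 1.98e-05) and 6.52 (SE 0.18, edgeR adjusted p = 4.29e-11). Without the M-MDSC library of WT replicate 2 the WT differences were 6.47 for *S100a8* and 6.79 for *S100a9*. With the mouse as a block, since both subsets of a replicate number came from the same animal, they were 5.95 and 6.27 in WT mice, and all 8 members stayed called in both genotypes. These fits scale libraries by the trimmed mean of M-values (TMM). When libraries were scaled by total count alone, the median of all tested genes moved to -0.79 in WT and -0.83 in *Nlrp3*-/- mice from -0.05 and -0.12, and the *S100a8* differences were 4.71 and 5.47. All 8 members kept their direction and their call under that scaling.

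**Figure D3:**
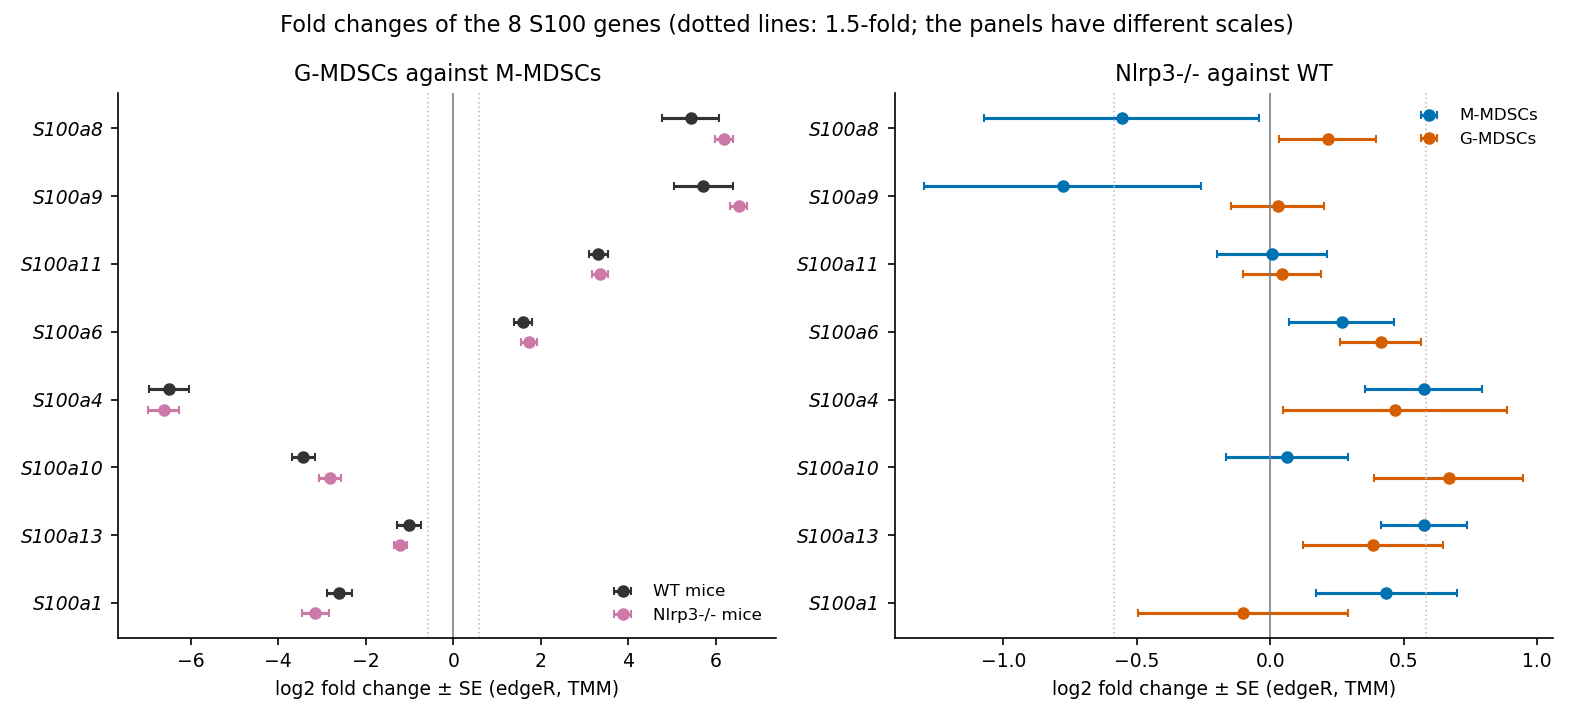
Log2 fold changes with their standard errors from edgeR for the 8 S100 genes, G-MDSCs against M-MDSCs on the left (WT and *Nlrp3*-/- mice) and *Nlrp3*-/- against WT on the right (M-MDSCs and G-MDSCs). Subset differences run from -6.62 for *S100a4* to 6.52 for *S100a9*, both in *Nlrp3*-/- mice, whereas genotype differences stay between -0.78 and 0.67, with the widest errors for *S100a8* and *S100a9* in M-MDSCs.

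Because both subsets of a mouse were sequenced, the M-MDSC level of each transcript can be set against the G-MDSC level of the same animal. For *S100a8* it was 1.91, 9.01, 1.92 and 1.84% in WT replicates 1 to 4 and 2.00, 2.33, 2.70 and 2.02% in *Nlrp3*-/- mice. For *S100a9* it was 1.53, 7.44, 1.43 and 1.57% in WT mice and 1.68, 1.80, 1.99 and 1.76% in *Nlrp3*-/- mice. Leaving out WT replicate 2, the values of both genes lay within a narrow band in the other 7 mice. Granulocyte markers were spread more widely. Their median in M-MDSCs was 5.05, 13.3, 4.97 and 3.88% of the G-MDSC level in WT mice and 4.64, 10.2, 4.45 and 6.13% in *Nlrp3*-/- mice, over 11 markers. Between 2 and 4 of these 11 markers had a lower percentage than *S100a8* in any mouse.

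**Figure D4:**
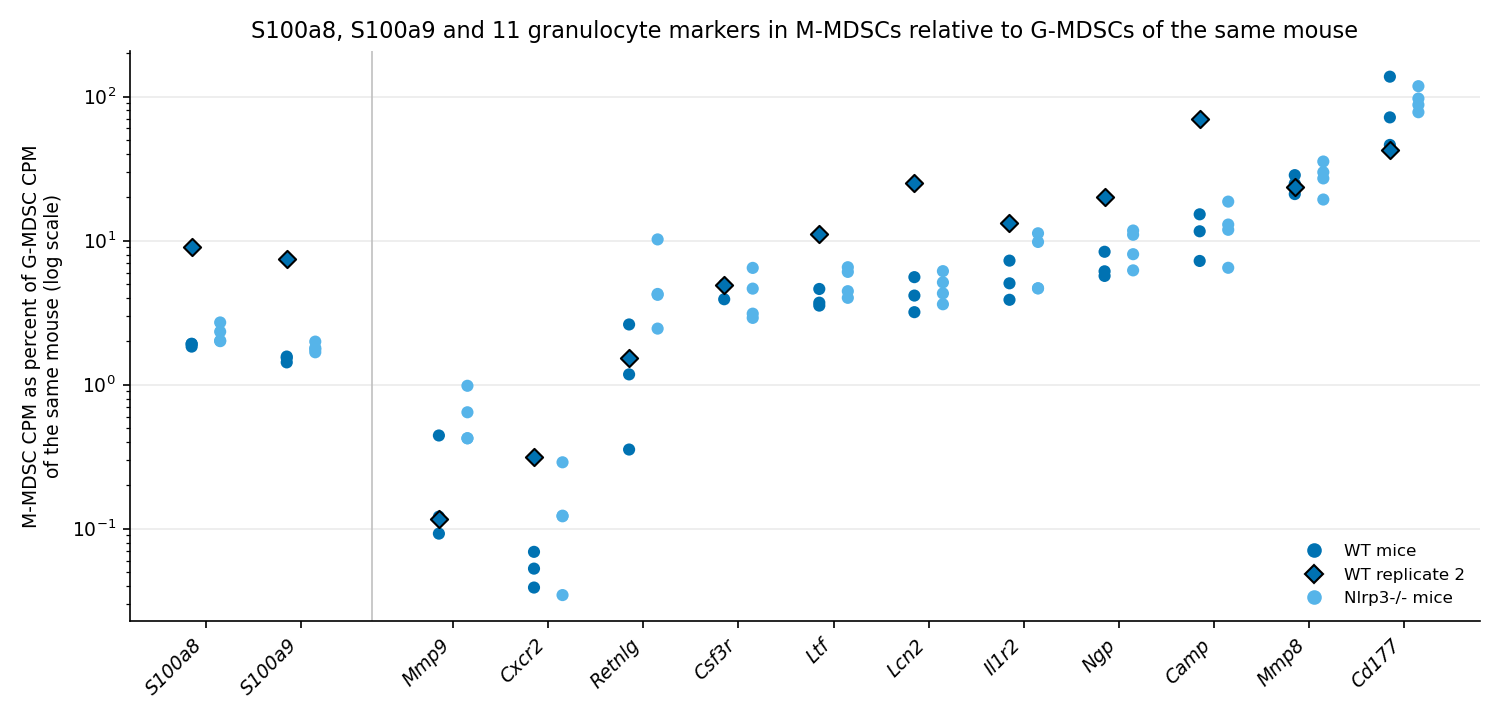
M-MDSC level as a percentage of the G-MDSC level of the same mouse (log scale) for *S100a8*, *S100a9* and 11 granulocyte markers, with 1 point per mouse, WT to the left and *Nlrp3*-/- to the right of each gene and WT replicate 2 as a diamond. *S100a8* stands between 1.84 and 2.70% in 7 mice and at 9.01% in WT replicate 2. There *Camp*, *Lcn2*, *Ngp*, *Ltf*, *Il1r2* and *Cxcr2* are also the highest of the 8 mice, and *Csf3r*, *Mmp8*, *Mmp9*, *Retnlg* and *Cd177* are not.

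In WT replicate 2 the 11 granulocyte markers summed to 3423 CPM in M-MDSCs, against 786 to 1049 CPM in the other 3 WT and 1255 to 1562 CPM in the 4 *Nlrp3*-/- M-MDSC libraries. Markers given with values here were picked after their values were seen. *Camp* (cathelicidin, a secondary granule peptide) stood in this mouse at 69.6% of its G-MDSC level, against 6.47 to 18.6% in the other 7 mice, and *Lcn2* (lipocalin 2) at 25.0% against 3.18 to 6.13%. *Ngp* was also highest in this mouse, at 19.9% against at most 11.7%, and so was *Ltf*, at 11.2% against at most 6.53%. *Il1r2* (13.3% against at most 11.2%) and *Cxcr2* (0.316% against at most 0.289%) were highest there by a narrower margin. *Csf3r* (the G-CSF receptor) stood at 4.88% against 2.91 to 6.46%, and *Mmp8* (neutrophil collagenase) at 23.4% against 19.3 to 35.4%, so these did not stand apart. *Mmp9*, *Retnlg* and *Cd177* were not highest in this mouse either. Primary granule genes of immature myeloid cells (*Mpo*, *Elane*, *Prtn3*, *Ctsg*, *Ms4a3*) summed to 366 CPM in this library, against 84.2 to 176 CPM in the other 7 M-MDSC libraries and 1.48 to 8.03 CPM in G-MDSCs. Their part in the *S100a8* and *S100a9* levels of that library was not tested.

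The count of *S100a9* per count of *S100a8* does not depend on the scaling between libraries. In replicates 1 to 4 it was 0.637, 0.703, 0.643 and 0.786 in WT and 0.679, 0.598, 0.515 and 0.635 in *Nlrp3*-/- M-MDSCs. G-MDSCs had 0.797, 0.851, 0.866 and 0.922 in WT and 0.812, 0.776, 0.700 and 0.730 in *Nlrp3*-/- mice. The WT means were 0.692 ± 0.0695 (SD, n = 4) for M-MDSCs and 0.859 ± 0.0516 (n = 4) for G-MDSCs. The *Nlrp3*-/- means were 0.607 ± 0.0696 (n = 4) for M-MDSCs and 0.754 ± 0.0495 (n = 4) for G-MDSCs. In each of the 8 mice the ratio was higher in G-MDSCs than in M-MDSCs, and the subsets did not overlap within a genotype. WT replicate 2, apart in level, had an ordinary ratio of 0.703 in M-MDSCs. Between subsets the exact two-sided permutation test on log2 ratios gave p = 0.0286 in WT and in *Nlrp3*-/- mice, the smallest that 4 against 4 can give, or 0.0571 after Benjamini-Hochberg adjustment over 4 comparisons. That test split the 8 libraries of a genotype freely, although both subsets came from the same 4 mice. Its p values therefore do not measure the difference within mice. Between genotypes the log2 ratio was lower in *Nlrp3*-/- mice, at -0.19 in M-MDSCs (exact p = 0.114, adjusted 0.114) and -0.19 in G-MDSCs (exact p = 0.0571, adjusted 0.0762), and the ranges overlapped.

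**Figure D5:**
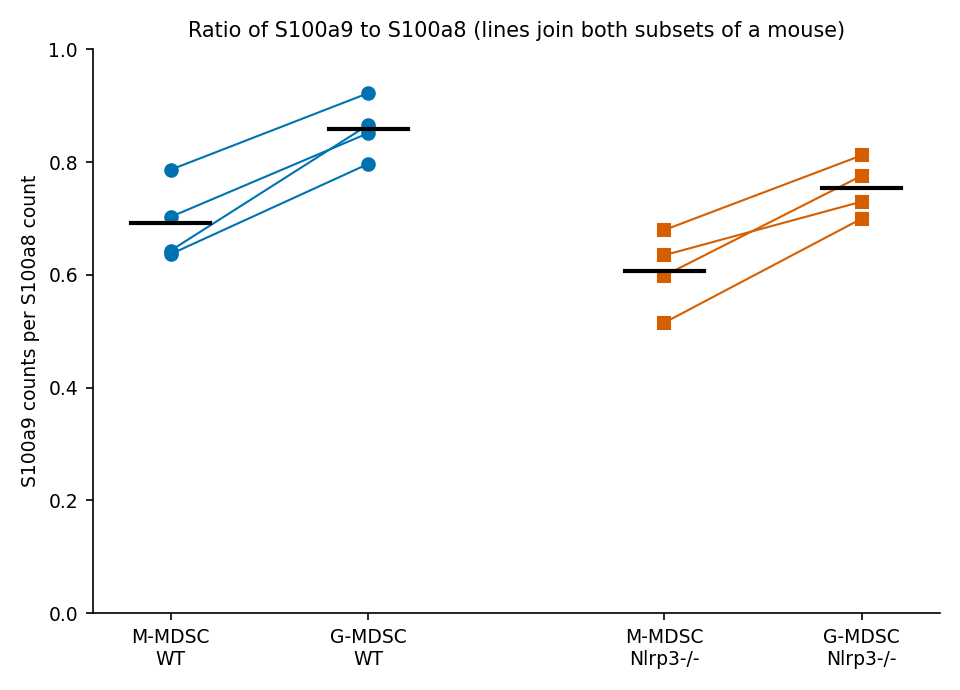
Counts of *S100a9* per count of *S100a8* in each library on an axis that starts at 0, with lines that join the M-MDSC and G-MDSC libraries of a mouse and bars at group means. All 8 lines rise from M-MDSCs to G-MDSCs, from group means of 0.692 to 0.859 in WT and 0.607 to 0.754 in *Nlrp3*-/- mice.

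As a description of which transcripts moved with the pair, deviations of log2 CPM from the group means were correlated over the 16 libraries, which share 8 mice. *S100a9* had the pattern most like *S100a8* (r = 0.98), followed by *Wfdc21* (r = 0.95) and *Asns* (r = 0.91). For *S100a9* the 3 closest were *S100a8*, *Wfdc21* (r = 0.98) and *Lcn2* (r = 0.93). These values were lower without 1 library. Over the 15 libraries without the M-MDSC library of WT replicate 2, the r of *S100a8* and *S100a9* was 0.77, that of *S100a8* and *Wfdc21* 0.51, and that of *S100a9* and *Lcn2* -0.06. The closest genes were then others, *Psmb6* (r = 0.94), *Psmc3* (r = 0.93) and *Dbnl* (r = 0.92) for *S100a8* and *Pdia3* (r = 0.84), *Gadd45g* (r = 0.84) and *Magoh* (r = 0.81) for *S100a9*. Among the members the r with *S100a8* was then 0.79 for *S100a11*, against 0.77 for *S100a9*. The order of likeness over 16 libraries thus rests on 1 library.

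*S100a4*, which binds non-muscle myosin IIA and is known from motile cells, showed the strongest difference in the opposite direction. In WT M-MDSCs it stood at 3476, 1866, 3187 and 3343 CPM, and in *Nlrp3*-/- M-MDSCs at 4103, 3762, 5999 and 4972 CPM. G-MDSCs held 39.2, 13.4, 9.93 and 14.8 CPM in WT and 31.4, 16.6, 20.4 and 47.5 CPM in *Nlrp3*-/- mice. Every M-MDSC library was thus far above every G-MDSC library. Within M-MDSCs each *Nlrp3*-/- library exceeded each WT library, and the lowest of the 8 was WT replicate 2, the library highest in *S100a8*. *S100a4* was lower in G-MDSCs, at -6.50 on the log2 scale in WT (SE 0.46, edgeR adjusted p = 3.70e-07) and -6.62 in *Nlrp3*-/- mice (SE 0.36, edgeR adjusted p = 3.34e-09). Within a library the count of *S100a4* per count of *S100a6* was 1.77 ± 0.198 (SD, n = 4) in WT and 2.25 ± 0.521 (n = 4) in *Nlrp3*-/- M-MDSCs, against 0.00645 ± 0.00427 and 0.00667 ± 0.00304 in G-MDSCs. *S100a4* in G-MDSCs stood at 0.312 to 1.13% of the M-MDSC level of the same mouse, while the median of 10 monocyte markers there was 1.89 to 4.37%, so it lay below the median of these markers in each of the 8 mice.

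*S100a10*, the partner of annexin A2 at the plasma membrane, was also an M-MDSC transcript. It stood at 257, 183, 273 and 292 CPM in WT and 392, 221, 184 and 327 CPM in *Nlrp3*-/- M-MDSCs. In G-MDSCs it stood at 10.7, 9.52, 13.2 and 23.1 CPM in WT and 30.6, 18.1, 28.3 and 20.1 CPM in *Nlrp3*-/- mice. The genotypes overlapped in both subsets, in G-MDSCs through the 1 WT library at 23.1 CPM. Between subsets *S100a10* was lower in G-MDSCs, at -3.42 in WT (SE 0.25, edgeR adjusted p = 4.58e-07) and -2.82 in *Nlrp3*-/- mice (SE 0.25, edgeR adjusted p = 4.04e-07) on the log2 scale.

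*S100a6* (calcyclin) and *S100a11* (calgizzarin), which bind annexins and in the case of S100A6 also the calcyclin-binding protein, were abundant in both subsets and higher in G-MDSCs. *S100a6* stood at 1793, 1199, 1639 and 2020 CPM in WT and 2488, 1558, 2090 and 2429 CPM in *Nlrp3*-/- M-MDSCs. In G-MDSCs it stood at 3074, 2563, 2978 and 3302 CPM in WT and 4664, 4358, 3855 and 4371 CPM in *Nlrp3*-/- mice. The 4 *Nlrp3*-/- G-MDSC libraries were the 4 highest of all 16, without overlap with WT G-MDSCs. *S100a6* differed between subsets by 1.59 on the log2 scale in WT (SE 0.20, edgeR adjusted p = 3.21e-05) and 1.73 in *Nlrp3*-/- mice (SE 0.17, edgeR adjusted p = 1.43e-06). Scaled by total count alone these were 0.84 and 1.01. *S100a11* ranged from 427 to 640 CPM in WT and 433 to 734 CPM in *Nlrp3*-/- M-MDSCs, and from 2820 to 3466 CPM in WT and 3295 to 3723 CPM in *Nlrp3*-/- G-MDSCs. Its subset difference, 3.31 in WT (SE 0.22) and 3.35 in *Nlrp3*-/- mice (SE 0.19), lay between those of *S100a6* and *S100a8*, with edgeR adjusted p = 1.91e-07 and 4.38e-09.

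*S100a13*, which takes part in the non-classical release of FGF1 and IL-1α, and *S100a1*, a regulator of calcium handling best known from muscle, had the lowest mean CPM of the 8 members in M-MDSCs. *S100a13* stood at 122, 89.0, 145 and 102 CPM in WT and 171, 195, 188 and 174 CPM in *Nlrp3*-/- M-MDSCs. In G-MDSCs it stood at 44.3, 14.6, 39.4 and 36.9 CPM in WT and 52.0, 48.6, 53.3 and 38.0 CPM in *Nlrp3*-/- mice. The genotypes were apart in M-MDSCs and overlapped in G-MDSCs, where WT replicate 2 was the lowest. *S100a1* ranged from 31.9 to 66.8 CPM in WT and 46.4 to 89.0 CPM in *Nlrp3*-/- M-MDSCs, and from 3.31 to 6.08 CPM in WT and 3.29 to 6.03 CPM in *Nlrp3*-/- G-MDSCs. The lowest WT G-MDSC value rested on 18 counts (95% Wilson interval 2.09 to 5.24 CPM, for counting error only), which was above the 3 counts taken as detected. On the log2 scale *S100a13* was lower in G-MDSCs, at -1.01 in WT (SE 0.28, edgeR adjusted p = 0.00818) and -1.21 in *Nlrp3*-/- mice (SE 0.15, edgeR adjusted p = 1.55e-05). The corresponding values of *S100a1* were -2.60 (SE 0.29, edgeR adjusted p = 1.30e-05) and -3.15 (SE 0.30, edgeR adjusted p = 8.51e-07).

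The head-to-head pair was not held at 1 ratio. Per count of *S100a1* there were 2.49 ± 0.477 counts of *S100a13* for M-MDSCs and 7.58 ± 3.58 for G-MDSCs of WT mice, and 2.83 ± 0.861 for M-MDSCs and 10.8 ± 3.84 for G-MDSCs of *Nlrp3*-/- mice (SD, n = 4 each). The ranges of the subsets did not overlap, at 1.83 to 2.88 and 3.16 to 11.9 in WT mice and at 2.07 to 3.69 and 8.04 to 16.2 in *Nlrp3*-/- mice. Deviations of the 2 transcripts from their group means had r = 0.15 over the 16 libraries, given as a description. The study's counting used the strand of the reads, so the opposite orientations of the genes keep their counts apart.

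Between genotypes in M-MDSCs, 0 of 8 members were called by edgeR's quasi-likelihood test, where 10.6% of 9986 tested genes were called, 3.51% higher and 7.1% lower in *Nlrp3*-/- mice. At an unadjusted p under 0.05 in edgeR the count was 2, where 30.1% of tested genes were. DESeq2 called 0, where it called 14.3% of tested genes. It gave no adjusted p for *S100a8* and *S100a9* in this comparison, so its count does not cover them. CPM ranges did not overlap for 2 members, *S100a4* and *S100a13*, both higher in *Nlrp3*-/- mice, against 13.9% of tested genes that were apart in that direction, 8.75% in the other and 22.7% in either. The exact permutation p of their CPM was 0.0286 for each, unadjusted. *S100a13* differed by 0.58 on the log2 scale (SE 0.16, edgeR adjusted p = 0.0406), a 1.49-fold change just under the fold required. It was called in 6 of 19 alternative fits, among them those without WT replicate 1, WT replicate 3 and *Nlrp3*-/- replicate 1, and its adjusted p was 0.0200 to 0.306 over these edgeR and DESeq2 fits. *S100a4* differed by 0.57 (SE 0.22, edgeR adjusted p = 0.106). *S100a1* differed by 0.43 (SE 0.26), *S100a6* by 0.27 (SE 0.20), *S100a10* by 0.06 (SE 0.23) and *S100a11* by 0.01 (SE 0.21), none past the threshold in edgeR's test. Without the library of WT replicate 2 the difference of *S100a13* was 0.50 (edgeR adjusted p = 0.117), and those of the other 5 were 0.43 for *S100a4*, 0.30 for *S100a1*, 0.17 for *S100a6*, -0.03 for *S100a10* and -0.06 for *S100a11*, none called. The sign of *S100a10* and *S100a11* turned in some alternative fits.

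For *S100a8* and *S100a9* the direction between genotypes in M-MDSCs turned when 1 library was left out. With all 8 libraries the log2 differences were -0.56 (SE 0.51, edgeR adjusted p = 0.493) and -0.78 (SE 0.52, edgeR adjusted p = 0.335). Without the library of WT replicate 2 they were 0.57 (edgeR adjusted p = 0.103) and 0.37 (edgeR adjusted p = 0.233). Neither pair of values passed the threshold, and a p that misses the threshold does not show that the genotypes did not differ. Over the 8 members the median log2 difference was 0.17, against 0.07 over all tested genes.

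Between genotypes in G-MDSCs, 0 of 8 members were called by edgeR's quasi-likelihood test, where 16.4% of 9273 tested genes were called, 4.7% higher and 11.7% lower in *Nlrp3*-/- mice. The count at an unadjusted p under 0.05 in edgeR was 2, where 32.3% of tested genes were, and DESeq2 called 0, where it called 19.2% of them. CPM ranges did not overlap for 2 members, *S100a8* and *S100a6*, both higher in *Nlrp3*-/- mice, against 14.2% of tested genes apart in that direction, 11.5% in the other and 25.6% in either. The exact permutation p of their CPM was again 0.0286, unadjusted. *S100a6* differed by 0.41 on the log2 scale (SE 0.15, edgeR adjusted p = 0.0743) and *S100a8* by 0.21 (SE 0.18, edgeR adjusted p = 0.448). Scaled by total count alone the *S100a8* difference was 0.34 and that of *S100a6* 0.53, while the median of all tested genes moved from 0.03 to 0.16. *S100a10* differed by 0.67 (SE 0.28, edgeR adjusted p = 0.112) and was called in 2 of 19 alternative fits, 1 of them without WT replicate 4, where the difference was 0.96 (edgeR adjusted p = 0.0309).

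None of the other members passed the threshold in G-MDSCs, and single libraries moved some of their values. *S100a4* differed by 0.47 (SE 0.42, edgeR adjusted p = 0.477) and moved between 0.08 without *Nlrp3*-/- replicate 4 and 1.08 without WT replicate 1, uncalled in both. *S100a13* differed by 0.39 (SE 0.26, edgeR adjusted p = 0.333) and by 0.15 without WT replicate 2. *S100a9* differed by 0.03 (SE 0.18), *S100a11* by 0.04 (SE 0.15) and *S100a1* by -0.10 (SE 0.39), and the sign of each turned in at least 1 alternative fit. The median over the 8 members was 0.30, against 0.03 over all tested genes.

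Whether the genotype difference itself differed between the subsets was tested as an interaction in a model of all 16 libraries. At an FDR under 0.05, 0 of 8 members were called by edgeR, where 0.028% of 10696 tested genes were (0.0187% higher and 0.00935% lower). Of the members 1 had an unadjusted p under 0.05 in edgeR, as 4.49% of tested genes had. DESeq2 called 0, where it called 0.0748% of tested genes, and gave no adjusted p for *S100a9*. The member with the smallest p was *S100a10*, whose genotype difference was larger in G-MDSCs by 0.73 on the log2 scale (SE 0.35, edgeR adjusted p = 0.992). *S100a8* and *S100a9* had differences of 0.88 (SE 0.60) and 0.92 (SE 0.60), which were -0.41 and -0.39 without the M-MDSC library of WT replicate 2. The 2 genotype comparisons come from the same 8 mice.

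Counts of further gene lists are on the TMM scale. On that scale 26.3% of all tested genes were higher and 27.1% lower in WT G-MDSCs, and 23.7% higher and 27.4% lower in *Nlrp3*-/- G-MDSCs. Between genotypes 10.6% of all tested genes were called in M-MDSCs and 16.4% in G-MDSCs. Scaling by total count alone was chosen for these lists after seeing the data. It gave fewer genes higher in G-MDSCs in each of the 4 lists that follow, and its counts between subsets stand beside them. By total count 63.9% of all tested genes were called between subsets in WT mice and 61.4% in *Nlrp3*-/- mice, most of them lower in G-MDSCs. Its share called between genotypes was 12.5% in M-MDSCs and 17.8% in G-MDSCs. Receptors and adaptors through which calprotectin acts were detected in all 4 groups. Of 12 listed genes, all tested, 5 were higher and 1 lower in G-MDSCs of WT mice, and 6 higher and 2 lower in those of *Nlrp3*-/- mice. By total count these were 3 higher and 4 lower in WT and 4 higher and 4 lower in *Nlrp3*-/- mice. *Cd33*, a sialic acid-binding receptor of S100A9, was higher by 4.25 in WT and 4.47 in *Nlrp3*-/- mice on the log2 scale, and *Tlr4* by 2.27 in both (edgeR adjusted p at most 4.43e-05 for each). Between genotypes 0 of the 12 were called in M-MDSCs by edgeR. In G-MDSCs 1 was, *Cd33*, higher in *Nlrp3*-/- mice by 0.62 (edgeR adjusted p = 0.0295).

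Among 15 listed proteins that S100 members bind, 10 or 11 were tested between subsets, with 4 higher and 5 lower in G-MDSCs of WT mice and 4 higher and 4 lower in those of *Nlrp3*-/- mice. By total count these were 3 higher and 6 lower in WT and 2 higher and 4 lower in *Nlrp3*-/- mice. *Ahnak*, a scaffold that binds the S100A10 complex, was lower, at -4.46 and -4.61 on the log2 scale, as *S100a10* was. *Myh9*, the heavy chain of the myosin that S100A4 binds, was higher by 1.49 and 1.37, opposite to *S100a4*, and *Capn1* (calpain 1) was higher by 2.12 and 2.33 (edgeR adjusted p at most 4.03e-05 for each of the 3). Between genotypes *Cacybp*, the calcyclin-binding protein, was lower in *Nlrp3*-/- mice, at -0.78 in M-MDSCs (edgeR adjusted p = 0.0204) and -0.95 in G-MDSCs (edgeR adjusted p = 0.0193). *Anxa6* was higher in *Nlrp3*-/- G-MDSCs by 0.94 (edgeR adjusted p = 0.00425). These were the only listed partners called between genotypes, 1 of 10 tested in M-MDSCs and 2 of 9 in G-MDSCs, where 10.6% and 16.4% of all tested genes were called. By total count *Anxa2* and *Capn1* were also called higher in *Nlrp3*-/- G-MDSCs, by 0.60 each on the log2 scale (edgeR adjusted p = 0.0199 and 0.0207). *Syt1*, named after its values were seen as a partner known from neurons, had no count in any library of the 4 groups.

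Of 18 listed transcription factors known to act on *S100a8*, *S100a9* or granulocyte genes, 10 were higher and 4 lower in G-MDSCs in both genotypes, or by total count 6 and 6 in WT and 5 and 6 in *Nlrp3*-/- mice. *Cebpd* (C/EBP delta) was higher in WT G-MDSCs by 2.96 on the log2 scale and *Klf5* in *Nlrp3*-/- G-MDSCs by 3.86, whereas *Klf4* was lower, at -3.66 and -3.58 and *Irf8* at -2.40 and -2.22 (edgeR adjusted p at most 2.99e-06 for each). *Cebpd* and *Klf5* are given for 1 genotype each because genes were named by the smallest p in a comparison. In the interaction 0 of the 18 factors were called by edgeR. Between genotypes 3 of 17 tested were higher and 2 lower in *Nlrp3*-/- M-MDSCs, and 2 of 18 were higher and 2 lower in *Nlrp3*-/- G-MDSCs, or by total count 4 and 1. *Irf7* was higher by 0.70 and 0.80 and *Rela* by 0.77 and 0.82 in M-MDSCs and G-MDSCs, *Klf4* was lower in M-MDSCs, at -0.85, and *Runx1* lower in G-MDSCs, at -0.89 (edgeR adjusted p at most 0.0231 for each). The phagocyte oxidase, to which calprotectin hands arachidonic acid, had 4 of 7 subunits higher and 2 lower in G-MDSCs in both genotypes, with *Rac2* higher by 2.14 and 2.27 and *Cybb* lower, at -1.55 and -2.27 (edgeR adjusted p at most 3.16e-04 for each). By total count 2 subunits were higher and 2 lower in G-MDSCs in both genotypes. None of the 7 subunits was called between genotypes by edgeR in either subset on the TMM scale, whereas by total count *Cyba* was higher in both subsets of *Nlrp3*-/- mice and *Rac2* in G-MDSCs.

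The 10 other counted S100 symbols summed to 2.74 to 4.51 CPM in WT M-MDSCs, 0.683 to 2.88 CPM in *Nlrp3*-/- M-MDSCs, 5.35 to 10.9 CPM in WT G-MDSCs and 9.28 to 17.0 CPM in *Nlrp3*-/- G-MDSCs. Between genotypes none of them was tested in M-MDSCs, and 4 were tested and 0 called in G-MDSCs. *S100g* was at 0 in all 16 libraries. *S100pbp*, the gene of a binding protein of another S100 protein and no family member itself, was the only one tested between subsets, and only in *Nlrp3*-/- mice, where it was higher in *Nlrp3*-/- G-MDSCs by 2.86 (edgeR adjusted p = 0.00164).

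Markers of other cell types moved with the genotype in some cases. Red pulp macrophage markers (7 listed, 7 tested) were higher in *Nlrp3*-/- mice for 5 in M-MDSCs and 6 in G-MDSCs, and summed to 92.4 to 111 CPM in WT and 209 to 384 CPM in *Nlrp3*-/- M-MDSCs and to 72.3 to 179 and 315 to 404 CPM in G-MDSCs. NK cell markers (4 listed) summed to 30.4 to 73.0 and 111 to 168 CPM in WT and *Nlrp3*-/- M-MDSCs and to 12.2 to 29.5 and 39.4 to 62.4 CPM in G-MDSCs, with *Gzma* called in both subsets and *Klra8* at 0. Eosinophil and basophil markers (6 listed) summed to 5.23 to 29.7 and 31.1 to 91.3 CPM in WT and *Nlrp3*-/- M-MDSCs and to 19.5 to 40.0 and 44.8 to 46.7 CPM in G-MDSCs, with 1 of 2 tested called higher in M-MDSCs and 0 of 2 in G-MDSCs. Sums of T cell, B cell, dendritic cell, erythroid and platelet markers overlapped between the genotypes in both subsets, and of these lists 1 of 4 tested B cell markers was called lower in M-MDSCs, 1 of 5 lower in G-MDSCs, and 1 of 3 platelet markers higher in G-MDSCs. Of 7 erythroid markers, the globin genes *Hba-a1*, *Hba-a2*, *Hbb-bs* and *Hbb-bt* had no count in any library, so the erythroid sums rest on the others. By total count, where 17.8% of all tested genes were called in G-MDSCs, 7 of 7 macrophage markers were higher in *Nlrp3*-/- G-MDSCs. The B cell call in M-MDSCs was lost under that scaling. Also called higher there in *Nlrp3*-/- G-MDSCs, named after their values were seen, were *Ccr3* (eosinophil and basophil list), *Cd79b* (B cell) and *Retnlg* (granulocyte). Their log2 differences were 1.14, 0.67 and 0.63 (edgeR adjusted p = 0.0386, 0.0351 and 0.0414). With upper-quartile scaling these genes were called as well, and *Ccr3* also with DESeq2 size factors in edgeR. Melanoma markers summed to at most 1.15 CPM, with *Tyr*, *Tyrp1* and *Mlana* at 0 in all libraries. Of the myeloid lists, granulocyte markers had 3 of 10 tested higher in *Nlrp3*-/- M-MDSCs and 1 of 11 lower in *Nlrp3*-/- G-MDSCs, monocyte markers 1 of 10 lower in M-MDSCs and 1 higher and 1 lower of 8 in G-MDSCs, and primary granule genes 0 of 5 called in M-MDSCs by edgeR. Monocyte markers summed to 577 to 895 CPM in WT and 964 to 1073 CPM in *Nlrp3*-/- G-MDSCs, without overlap. In M-MDSCs their sums overlapped between the genotypes, at 7928 to 11958 and 10728 to 14176 CPM. The part of any of these cells in the S100 differences between genotypes was not tested.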

How the data were processed

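QuantSeq 3′ mRNA libraries of sorted splenic M-MDSCs and G-MDSCs from 4 WT and 4 *Nlrp3*-/- mice were analysed, 1 library per subset and mouse. The deposited values are raw counts per gene symbol. The authors aligned reads to mm10 with HISAT2 (version 2.1.0), counted them with HTSeq in stranded mode and tested genotypes with edgeR (version 3.14.0). The number of amplification cycles was not the same for all libraries, and which library had which is not given in the sources used here. Counts of duplicated molecules were not removed by molecular identifiers, so intervals and floors cover counting error only.

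All 24421 symbols were fitted with edgeR 4.0.16 in R 4.3.3: filterByExpr, TMM scaling, the quasi-likelihood test and Benjamini-Hochberg adjustment over all tested genes, with calls at an FDR under 0.05 and a fold change above 1.5 (FDR alone for the interaction). Standard errors are the log2 fold change divided by the square root of F. Log2 CPM, used for the correlations and for the GC content and length offsets, carry a prior count of 2. Log2 fold changes come from the edgeR or DESeq2 fits with default settings. CPM are plain counts per 1000000 counts of the library. Exact permutation tests used all 70 splits of 8 libraries. On simulated counts with 200 genes changed 3-fold, the test recovered 75% (9986 genes, genotypes in M-MDSCs), 77.5% (9273, genotypes in G-MDSCs), 85% (9739, subsets in WT mice) and 64.5% (10071, subsets in *Nlrp3*-/- mice), and 5.66, 8.28, 4.49 and 4.44% of its calls were genes left unchanged. In the data 1060, 1522, 5193 and 5141 genes were called in these comparisons, in the same order. How the test and its scaling perform with that many genes changed was not tested.

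Gene positions come from GENCODE M21, matched for 24053 symbols, and sequences from RefSeq. The S100 genes and the 18 gene lists were chosen with earlier results of these data known. Named genes are all 8 members, at most 3 genes of a list with the smallest p in a comparison and the 3 genes most like *S100a8* and *S100a9*, and others are said to be picked after their values were seen. Replicate numbers pair M-MDSCs with G-MDSCs of the same mouse; deviations of such libraries from group means had mean correlations of 0.239 (WT) and 0.190 (*Nlrp3*-/-). No within-group pair of libraries was identical. Alternatives changed the test, scaling, filter, samples in the fit, block, and GC content and length offsets, and left out each library in turn, with DESeq2 1.42.0 as the other tool.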

Additional observations from a re-analysis of the deposited data

Results flagged for a closer look

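The following values stood apart from the other 3 libraries of their group by Dixon's test at the 95% level, which divides the gap to the nearest library by the range of the group. In WT M-MDSCs, *S100a8* stood at 4462 CPM in replicate 2 (gap 0.954 of the range) and *S100a9* at 3135 CPM in the same library (0.935). In WT G-MDSCs, *S100a4* stood at 39.2 CPM in replicate 1 (0.835). In all, 36 such tests were made, each of 1 gene on the 4 libraries of 1 group, and 3 values stood apart, where chance gives about 1 in 20. The tests share the same 16 libraries. The pair comes from 1 library, so these are not separate events.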

How the results depend on the processing

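Subset differences kept their direction and call for all 8 members in every alternative that gave a value; DESeq2 gave no adjusted p for *S100a9* in WT mice. Between genotypes in M-MDSCs the number of members called was 1 (*S100a13*) with scaling by library size only (log2 difference 0.67), upper-quartile scaling (0.60) or no filter on low counts (0.59), where 12.5, 10.9 and 7.09% of all tested genes were called, and 0 to 1 when single libraries were left out. In G-MDSCs it was 1 (*S100a10*) in the model of all 16 libraries (0.76), where 17.8% of all tested genes were called, and 0 to 1 with single libraries left out. The cause was not tested.

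In M-MDSCs the log2 difference of *S100a11* turned to -0.0198 with DESeq2 or its size factors in edgeR, to -0.0182 in the model of all 16 libraries, to -0.004181 with at least 10 counts in every library and to -0.002497 with GC content and length offsets. With these offsets *S100a10* turned to -0.0645, and with the replicate block as well to -0.0901, where *S100a8* turned to 0.15. In G-MDSCs *S100a1* turned to 0.0203 with library size only and *S100a11* to -0.0287 with the offsets and -0.0208 with block and offsets. The interaction of *S100a4* turned to 0.0149 without a filter, 0.0607 with the mouse as a block and 0.003932 with block and offsets. With single libraries left out, the M-MDSC differences ran from -0.82 to 0.57 for *S100a8*, -1.05 to 0.37 for *S100a9*, -0.16 to 0.22 for *S100a10* and -0.15 to 0.14 for *S100a11*, those in G-MDSCs from -0.25 to 0.0568 for *S100a1* and -0.0261 to 0.10 for *S100a9*, and the interactions from -0.41 to 1.14 for *S100a8*, -0.39 to 1.19 for *S100a9*, -0.0787 to 0.32 for *S100a11*, -0.33 to 0.0878 for *S100a13* and -0.40 to 0.63 for *S100a4*. With *S100a8* and *S100a9* left out of the total, the share of *S100a6* in *Nlrp3*-/- G-MDSCs was 0.480%, and that of *S100a11* 0.343% in WT and 0.393% in *Nlrp3*-/- G-MDSCs.

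Over all genes, 1060 calls in M-MDSCs became 425 with the replicate block, 658 with the offsets, 48 with both and 450 to 1783 with single libraries left out (514 without WT replicate 2). In G-MDSCs 1522 became 985, 964, 398 and 1104 to 1544. The 3 interaction calls became 8 with DESeq2, 5 without a filter and 2 to 5 with single libraries left out. Scaling by library size moved the share of calls that were lower from 66.9 to 45.4% in M-MDSCs, 71.4 to 51.9% in G-MDSCs and 50.8 to 81.3% between subsets of WT and 53.7 to 81.5% of *Nlrp3*-/- mice. For genotypes the block joined different mice that share only a number, with mean correlations of -0.157 and -0.152; it changed no member's call, nor did the mouse block between subsets. Between subsets depth limits *S100a1* most, with 15 to 32 counts per G-MDSC library.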
